A study of Mus musculus with 10 samples.

Results

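The cornified envelope genes were followed in mouse back skin by RNA sequencing. They were taken by symbol: every row that starts with *Sprr* or *Lce*, together with *Lor*, *Ivl*, *Flg2*, *Hrnr*, *Rptn*, *Tgm1*, *Tgm3*, *Tgm5* and *Casp14*. This gave 46 of the 24452 named genes, of which 41 had enough counts to be tested and 5 (*Sprr2a1*, *Sprr2a2*, *Sprr2j-ps*, *Sprr2k* and *Sprr3*) did not. Filaggrin (*Flg*) was not analysed here. The 46 genes fall into 16 *Sprr* genes, 14 *Lce1* genes, 6 *Lce3* genes, *Lce6a*, 5 other precursors (*Lor*, *Ivl*, *Flg2*, *Hrnr* and *Rptn*) and 4 enzymes (*Tgm1*, *Tgm3*, *Tgm5* and *Casp14*).

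The libraries came from 5 wild type (WT) mice and 5 mice with the genotype TTP delta ARE (KI), all of strain C57BL/6, with 1 library per mouse. TTP is the protein of the *Zfp36* gene and binds AU-rich elements to speed the decay of messenger RNAs. In KI mice an instability motif was removed from the 3′-UTR of *Zfp36* itself, at its own locus and therefore in every tissue, and littermates served as controls. Both groups started at 7 weeks of age, received 400 nmol of the mutagen DMBA once on the back and then 10 nmol of the tumor promoter TPA on 2 days of each week for 20 weeks, so no library shows untreated skin. The tissue was full-thickness treated skin without tumor, and each value is a mean over all of its cells: fewer cells of a type and less RNA per cell cannot be told apart.

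The cornified envelope is the protein shell that replaces the plasma membrane of keratinocytes as they become the dead outer layer of the skin. Involucrin is laid down first, loricrin and small proline-rich (SPRR) proteins are added to it, late cornified envelope (LCE) proteins follow, and transglutaminases join all of them by cross-links. SPRR genes and the *Lce3* group are known to be induced in wounded, inflamed or TPA-treated epidermis, whereas the *Lce1* group, loricrin and the filaggrin family belong to the late program of normal differentiation.

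*Zfp36*, the targeted gene, had a normalized count of 2152 ± 277 (SD, n = 5) in WT and 5427 ± 766 (SD, n = 5) in KI skin (log2 fold change 1.33, SE 0.12, edgeR adjusted p = 0.00195), and the groups did not overlap. Here and below a normalized count is the count scaled by edgeR's TMM method to the mean library size, a log2 fold change is KI minus WT, and p-values come from edgeR's quasi-likelihood test over 15543 genes with Benjamini-Hochberg adjustment. Depth was between 21638400 and 32583217 counts in WT and between 19595035 and 36419573 in KI libraries. Keratins of the basal layer (*Krt5*, *Krt14*) and of the layers above it (*Krt1*, *Krt10*) were abundant in all 10 libraries, as the label skin requires. Y-linked genes were counted in KI replicates 2 to 5 (3349 to 4262 counts) and in no other library above 1 count. *Xist* had 14829 to 28087 counts in the WT libraries and KI replicate 1, and 4 to 15 in KI replicates 2 to 5. By these marks KI replicates 2 to 5 were male and all other libraries female. Sex and genotype therefore cannot be fully told apart in any comparison below.

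Of the 41 genes tested, 8 passed an adjusted p of 0.05 (19.5%), against 34.3% of all genes tested. Only 3 were higher in KI skin (7.32%, against 15.3% of all genes), the transglutaminases *Tgm3* and *Tgm1* and the precursor *Ivl*. The 5 that were lower (12.2%, against 19.1% of all genes) were *Flg2*, *Lce1l*, *Lce1i*, *Lce1b* and *Lce1c*. *Tgm3* alone also changed by more than 2-fold, in the higher direction, which 1.67% of all genes did, and no envelope gene fell by more than 2-fold, which 6.64% did; in either direction the share of all genes was 8.31%. The groups did not overlap for 5 of the 41 genes, against 23.1% of all genes. Those 5 were *Tgm3* and *Tgm1*, higher in every KI library, and *Flg2*, *Lce1l* and *Lce1i*, lower in every KI library.

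The classes differed in how their values lay. All 14 *Lce1* genes had a negative log2 fold change, with a median of -0.48, a range of -0.70 to -0.34 and standard errors of 0.14 to 0.30. In edgeR 4 of them passed, all lower (28.6%, against 19.1% of all genes). With DESeq2, which called 3364 of 15543 genes lower, 7 passed. The 11 *Sprr* genes tested had a median of 0.29 and a range of -0.18 to 0.85, none passed in edgeR (1 at an unadjusted p under 0.05, and 1 with DESeq2, *Sprr1a* in both), and their median standard error was 0.83. The 6 *Lce3* genes had a median of 0.24 and none passed in edgeR (0 at an unadjusted p under 0.05 and 0 with DESeq2). The 5 other precursors had a median of -0.35 with 1 gene higher and 1 lower (20% each). The 4 enzymes had a median of 0.08 with 2 higher (50%). Of all genes, 15.3% were higher and 19.1% lower. Over all genes tested the median was 0.01.

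**Figure D1:**
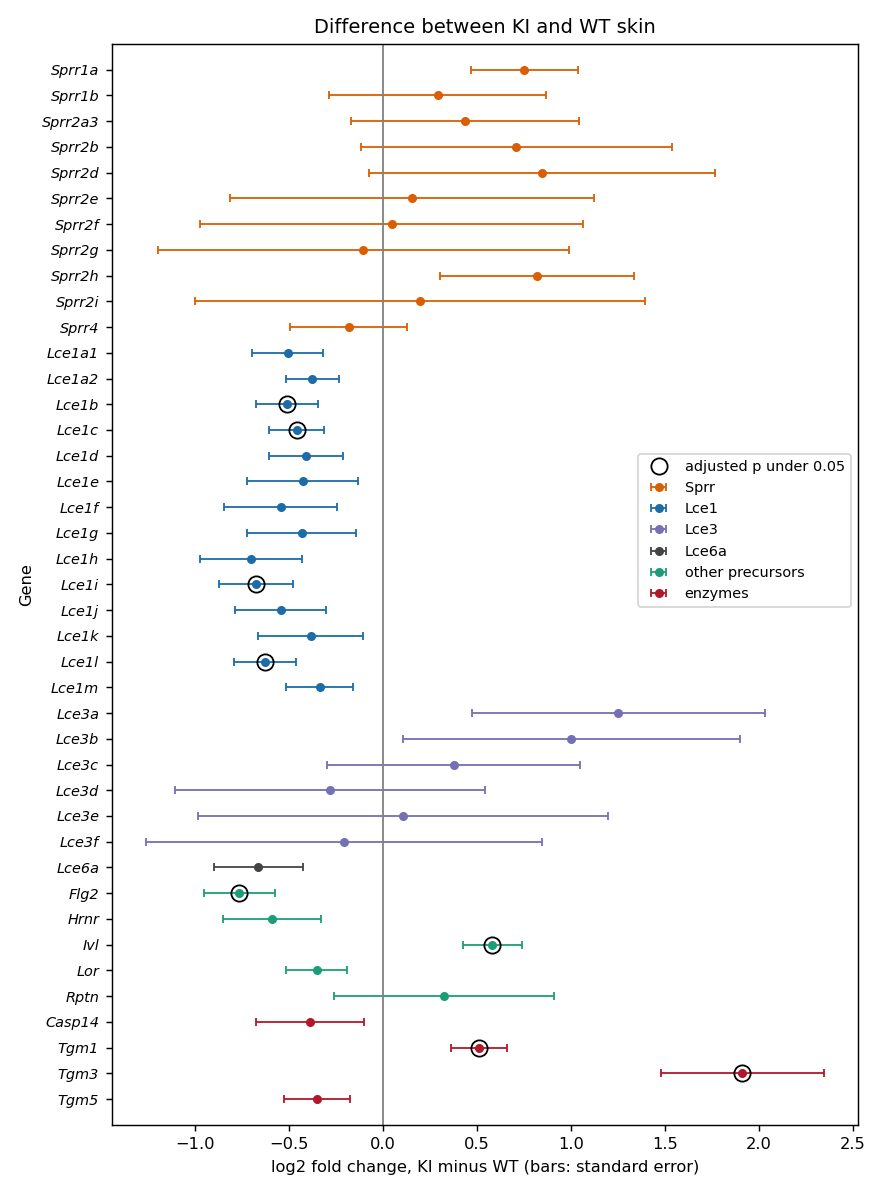
Log2 fold change of each of the 41 genes tested, KI minus WT, with its standard error as a bar, coloured by class; open circles mark an adjusted p under 0.05. All 14 *Lce1* points lie left of 0 with short bars, the *Sprr* and *Lce3* points have long bars that mostly cross 0, and *Tgm3* stands farthest to the right at 1.91.

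Most of the genes also share their place, and their promoters differ by class. In RefSeq on GRCm38.p6, 42 of the 46 lie on chromosome 3 between positions 92080271 and 93399442, a stretch of 1.319 megabases known as the epidermal differentiation complex. All 16 *Sprr* genes lie in 0.285 megabases, and 13 of the *Lce1* genes follow next to each other, while *Lce1m* stands apart on the far side of the *Lce3* genes. *Tgm3* and *Tgm5* are on chromosome 2, *Tgm1* on chromosome 14 and *Casp14* on chromosome 10. RefSeq promoters, 250 bases before to 50 after the start, were matched for 43 of the 46 genes.

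TGAGTCA, the site that AP-1 factors are known to bind and that TPA acts through, was searched on both strands. It was in the promoters of 8 of 14 *Sprr* genes and of *Lor* and *Ivl*, in 0 of 20 *Lce* promoters and in 0 of the 4 enzymes, against 5.2% of all 32851 promoters. Windows of 30 bases are shown for the *Sprr* gene with the most counts, for 3 *Sprr2* genes that differ in their counts below and for the precursors, with the site in capitals, 5′ to 3′ on the strand of each gene; in *Ivl* it reads on the opposite strand. Their positions are chr3:92486009-92486038 (minus strand) for *Sprr1a*, chr3:92338936-92338965 (plus) for *Sprr2d*, chr3:92385476-92385505 (plus) for *Sprr2h*, chr3:92407787-92407816 (plus) for *Sprr2i*, chr3:92083172-92083201 (minus) for *Lor* and chr3:92573833-92573862 (minus) for *Ivl*.
Sprr1a: ataactaaagcTGAGTCAgagggtgaacta
Sprr2d: tgagtgctcacTGAGTCAcaggtctcaacg
Sprr2h: gggatggtctcTGAGTCActgcactttacc
Sprr2i: gaagggctcacTGAGTCAcaggactgaaca
Lor: tgatcaatagaTGAGTCAgagcaggacaag
Ivl: aagttatcagaTGACTCAgaaaggaaggaa

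The *Lce* promoters had another run of letters in common. ATAAAAGG, chosen after reading these promoters, was in 10 of 13 *Lce1* and 3 of 6 *Lce3* promoters, in each of them once and 28 to 30 bases before the start, against 1.76% of all promoters. It was also in *Sprr4*, 216 bases before the start. TATAAA, the core letters of the TATA box, was in 10 of 14 *Sprr* promoters and in 4 of the 5 other precursors but in 2 of 13 *Lce1* promoters, against 13.6% of all promoters. It lay 29 to 43 bases before the start in those *Sprr* promoters and 27 to 31 in those precursors, close to the place of ATAAAAGG in the *Lce* promoters. Whether ATAAAAGG serves there as a form of the TATA box was not tested. Both runs of letters were in 3 genes (*Lce1d*, *Lce1m* and *Lce3e*). They overlap in *Lce1d* and *Lce1m*, while in *Lce3e* TATAAA is on the opposite strand, 243 bases before the start. Of the 4 *Lce1* genes lower in KI skin, *Lce1b* did not hold ATAAAAGG. The windows below are of the other 3 (*Lce1c*, *Lce1i* and *Lce1l*), of *Lce1m* and of an *Lce3* gene, at chr3:92679207-92679236 (plus strand) for *Lce1c*, chr3:92778910-92778939 (minus) for *Lce1i*, chr3:92851296-92851325 (minus) for *Lce1l*, chr3:93019071-93019100 (minus) for *Lce1m* and chr3:92957349-92957378 (plus) for *Lce3d*.
Lce1c: ccaggatcagaATAAAAGGacctatggaca
Lce1i: tcaggttcagaATAAAAGGactgatggaca
Lce1l: tcgggcctagcATAAAAGGactcctgtgct
Lce1m: agcagaactgtATAAAAGGcaggcggttct
Lce3d: atctaccaaggATAAAAGGgctgctgccct

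Among the enzymes, *Tgm3* rose most. TGM3 is the transglutaminase that links SPRR and loricrin into small oligomers, and it also works in the hair follicle. Its normalized counts were 656, 2483, 815, 2784 and 1867 in WT replicates 1 to 5 and 6010, 5545, 10998, 6107 and 3742 in KI replicates 1 to 5. Every KI library was above every WT library, with WT replicates 1 and 3 lowest and KI replicate 3 highest. The difference was 3.76-fold (log2 fold change 1.91, SE 0.43, edgeR adjusted p = 0.0117). Hair genes moved with it: all 12 hair shaft keratins had a positive log2 fold change (median 2.28). In edgeR 4 passed (33.3%, against 15.3% of all genes), and 12 passed with DESeq2, which called 3067 of 15543 genes higher. None was at 0 in any library. Their summed level was 86.6 to 3880 CPM (counts scaled to the same total in each library, as edgeR gives them) in WT and 6086 to 17579 in KI libraries. The mean log2 level of these keratins did not overlap between the groups (2.42 to 7.85 in WT, 8.56 to 9.92 in KI), so hair content and genotype cannot be told apart. With that level as a covariate the log2 fold change of *Tgm3* was 0.94 (edgeR adjusted p = 0.306), and without WT replicates 1 and 3, the libraries lowest in hair keratins, it was 1.45 (edgeR adjusted p = 0.0235).

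*Tgm1*, the membrane-bound transglutaminase that starts the cross-linking and whose loss causes lamellar ichthyosis, rose by less. In WT skin its counts were 3685, 4861, 3336, 5817 and 5456, and in KI skin they were 6228, 6576, 6397, 7403 and 6431 (normalized). The groups did not overlap, and the KI libraries lay closer together (SD 462) than the WT libraries (SD 1085). The difference was 1.43-fold (log2 fold change 0.51, SE 0.15, edgeR adjusted p = 0.0241). Without WT replicates 1 and 3 it was 0.30 on the log2 scale (edgeR adjusted p = 0.0443), and with the hair keratin level as a covariate 0.14 (edgeR adjusted p = 0.627). It was not past the threshold without WT replicate 1, KI replicate 2 or KI replicate 4 (edgeR adjusted p = 0.0556, 0.0504 and 0.0508).

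The other enzymes did not pass. *Tgm5*, a transglutaminase of the upper epidermis, had normalized counts of 1249, 1372, 1619, 1400 and 1694 in WT and 908, 1023, 836, 1555 and 1435 in KI skin (log2 fold change -0.35, SE 0.18, edgeR adjusted p = 0.137). *Casp14*, the caspase that acts on filaggrin during cornification, had 14830, 14452, 15309, 14508 and 26461 in WT and 8112, 9095, 10150, 17464 and 20620 in KI skin (log2 fold change -0.39, SE 0.29, edgeR adjusted p = 0.308). For both genes KI replicates 1 to 3 were below all WT libraries while KI replicates 4 and 5 were within the WT range.

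**Figure D2:**
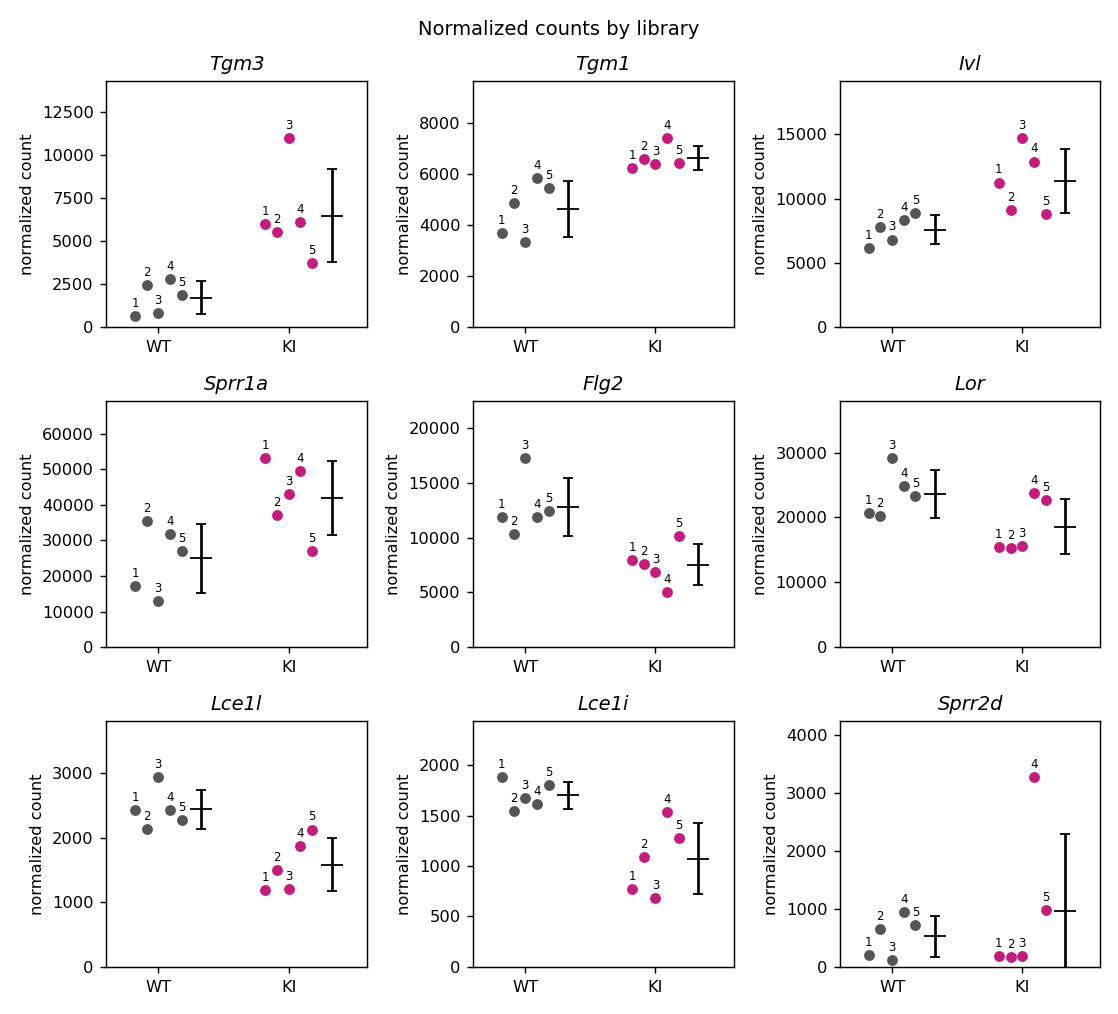
Normalized counts of 9 genes in each library, with the replicate number above each point and the mean with its SD beside each group (n = 5); the lower arm for *Sprr2d* in KI is cut at 0. *Tgm3* and *Tgm1* are higher and *Flg2*, *Lce1l* and *Lce1i* lower in every KI library than in every WT library, while *Lor* and *Sprr2d* overlap.

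The precursors moved in different directions. *Ivl* encodes involucrin, the first scaffold of the envelope. It had normalized counts of 6136, 7796, 6820, 8313 and 8858 in WT and 11245, 9097, 14714, 12878 and 8836 in KI skin. Only KI replicate 5 was within the WT range. The difference was 1.5-fold (log2 fold change 0.58, SE 0.16, edgeR adjusted p = 0.0197), and it was 0.45 on the log2 scale without WT replicates 1 and 3 (edgeR adjusted p = 0.102) and 0.34 with the hair covariate (edgeR adjusted p = 0.486).

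*Lor* encodes loricrin, the main protein of the finished envelope. Its normalized counts were 20615, 20161, 29227, 24909 and 23342 in WT and 15494, 15339, 15613, 23715 and 22624 in KI skin, again with KI replicates 1 to 3 below and KI replicates 4 and 5 within the WT range. The log2 fold change was -0.35 (SE 0.16, edgeR adjusted p = 0.113). The ratio of *Ivl* to *Lor* counts, computed after both had been seen and given as a description, was 0.233 to 0.387 in WT and 0.391 to 0.942 in KI libraries. That of *Tgm1* to *Lor* was 0.114 to 0.241 in WT and 0.284 to 0.429 in KI libraries. The ratios of *Lce1b*, *Flg2*, *Hrnr* and *Casp14* to *Lor*, also computed, overlapped between the groups.

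*Flg2* and *Hrnr* belong to the filaggrin family of large S100-fused proteins that fill and bind the keratin core. *Flg2* had normalized counts of 11897, 10325, 17292, 11876 and 12396 in WT and 7970, 7629, 6822, 5052 and 10154 in KI skin. The groups did not overlap, although KI replicate 5 came close to WT replicate 2, and WT replicate 3 was highest. The level was 1.70-fold lower in KI skin (log2 fold change -0.76, SE 0.19, edgeR adjusted p = 0.0145), and it was past the threshold in all 10 fits that left out 1 library, but not without both WT replicates 1 and 3 (edgeR adjusted p = 0.0594), with scaling to *Krt5* and *Krt14* (0.146) or with the hair covariate (log2 fold change -0.43, edgeR adjusted p = 0.419). *Hrnr* had 6612, 7812, 9194, 8509 and 7460 in WT and 3400, 3928, 3615, 6377 and 9041 in KI skin (log2 fold change -0.59, SE 0.26, edgeR adjusted p = 0.10).

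Repetin (*Rptn*), a filaggrin-family gene known from the tongue, the hair follicle and stressed skin, was set by 1 library. In the 5 libraries of each group, in order, the normalized counts were 4702, 10252, 5591, 12898 and 11354 in WT and 6335, 3561, 4385, 31189 and 10696 in KI skin. KI replicate 4 stood far above the other 9 libraries, whose values overlapped between the groups. The log2 fold change was 0.33 (SE 0.58, edgeR adjusted p = 0.682), and without KI replicate 4 it was -0.52 (edgeR adjusted p = 0.317).

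The *Lce1* genes encode the LCE proteins of normal late epidermis. *Lce1l* had normalized counts of 2430, 2136, 2935, 2435 and 2277 in WT and 1198, 1505, 1206, 1875 and 2128 in KI skin, and the groups did not overlap. The level was 1.54-fold lower in KI skin (log2 fold change -0.63, SE 0.16, edgeR adjusted p = 0.0181). *Lce1i* had 1879, 1547, 1677, 1611 and 1799 in WT and 777, 1085, 680, 1531 and 1280 in KI skin, also without overlap (log2 fold change -0.67, SE 0.20, edgeR adjusted p = 0.0266). Of the 10 fits that left out 1 library, *Lce1l* was past the threshold in all and *Lce1i* in 7, the exceptions being those without WT replicate 1, KI replicate 1 or KI replicate 2 (edgeR adjusted p = 0.0601, 0.0564 and 0.0547).

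*Lce1b* and *Lce1c* changed in the same direction by less. *Lce1b* had normalized counts of 5053, 4490, 5634, 5056 and 5584 in WT and 2676, 3412, 2797, 4577 and 4690 in KI skin (log2 fold change -0.51, SE 0.16, edgeR adjusted p = 0.0356). *Lce1c* had 4227, 4189, 5074, 4663 and 4804 in WT and 2620, 3015, 2675, 4086 and 4326 in KI skin (log2 fold change -0.46, SE 0.15, edgeR adjusted p = 0.0363). The groups overlapped through KI replicates 4 and 5 for *Lce1b* and through KI replicate 5 for *Lce1c*, and both genes were past the threshold in 3 of the 10 fits that left out 1 library. With the hair covariate the log2 fold changes of *Lce1l*, *Lce1i*, *Lce1b* and *Lce1c* were -0.37, -0.56, -0.37 and -0.34, with edgeR adjusted p-values from 0.417 to 0.506. For the 10 other *Lce1* genes the log2 fold change was between -0.70 and -0.34 with edgeR adjusted p-values from 0.0597 (*Lce1a1*) to 0.300 (*Lce1k*).

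KI replicates differed among themselves in the *Lce1* genes. KI replicate 1 was below all WT libraries in 13 of 14 *Lce1* genes, KI replicate 2 in 12, KI replicate 3 in 13, KI replicate 4 in 5 and KI replicate 5 in 3. The median ratio of the 14 genes to their WT mean was 0.484, 0.627, 0.483, 0.947 and 0.958 in KI replicates 1 to 5. The SD was larger in KI than in WT for 13 of the 14 genes, *Lce1m* being the exception. The ratio of the highest to the lowest library had a median of 1.25 within WT and 2.14 within KI.

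The suprabasal keratins *Krt1* and *Krt10* were low in the same libraries. *Krt10* had normalized counts of 153802 to 231340 in WT and 82172, 93708, 87390, 168085 and 178061 in KI skin, and *Krt1* had 76967 to 135788 in WT and 41387, 45381, 50550, 164999 and 150694 in KI skin. Of the 4 suprabasal keratins, 1 (*Krt77*) passed and was lower, with a log2 fold change of -0.93 (SE 0.26, edgeR adjusted p = 0.0234); its lowest library was KI replicate 4. *Krt2*, the fourth, had the opposite sign at far lower counts, 15.9 to 87.7 in WT and 20.2, 154, 82.4, 74.8 and 227 in KI skin (log2 fold change 1.6, SE 0.62, edgeR adjusted p = 0.0691). With DESeq2 1 of the 4 was higher and 2 were lower. Their summed level was 10702 to 16369 CPM in WT and 5790 to 13482 in KI libraries. The ratio of *Lce1b* to *Krt10* counts, again a description made after seeing both, was 0.0244 to 0.0329 in WT and 0.0263 to 0.0364 in KI libraries. The part of these keratins in the *Lce1* result was not tested beyond the scaling given at the end.

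*Lce1m*, the *Lce1* gene with the most counts, departed from this order. Its normalized counts were 7829, 5537, 10540, 8583 and 7082 in WT and 6116, 7292, 5838, 4616 and 7492 in KI skin (log2 fold change -0.34, SE 0.18, edgeR adjusted p = 0.157). WT replicate 3 was highest and KI replicate 4 lowest, and both were also the extremes of *Flg2* and of *Krt77*. *Lce6a*, a single gene next to *Ivl*, had 1594, 2153, 2233, 1854 and 2107 in WT and 842, 846, 1036, 1626 and 1945 in KI skin (log2 fold change -0.66, SE 0.24, edgeR adjusted p = 0.0513).

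**Figure D3:**
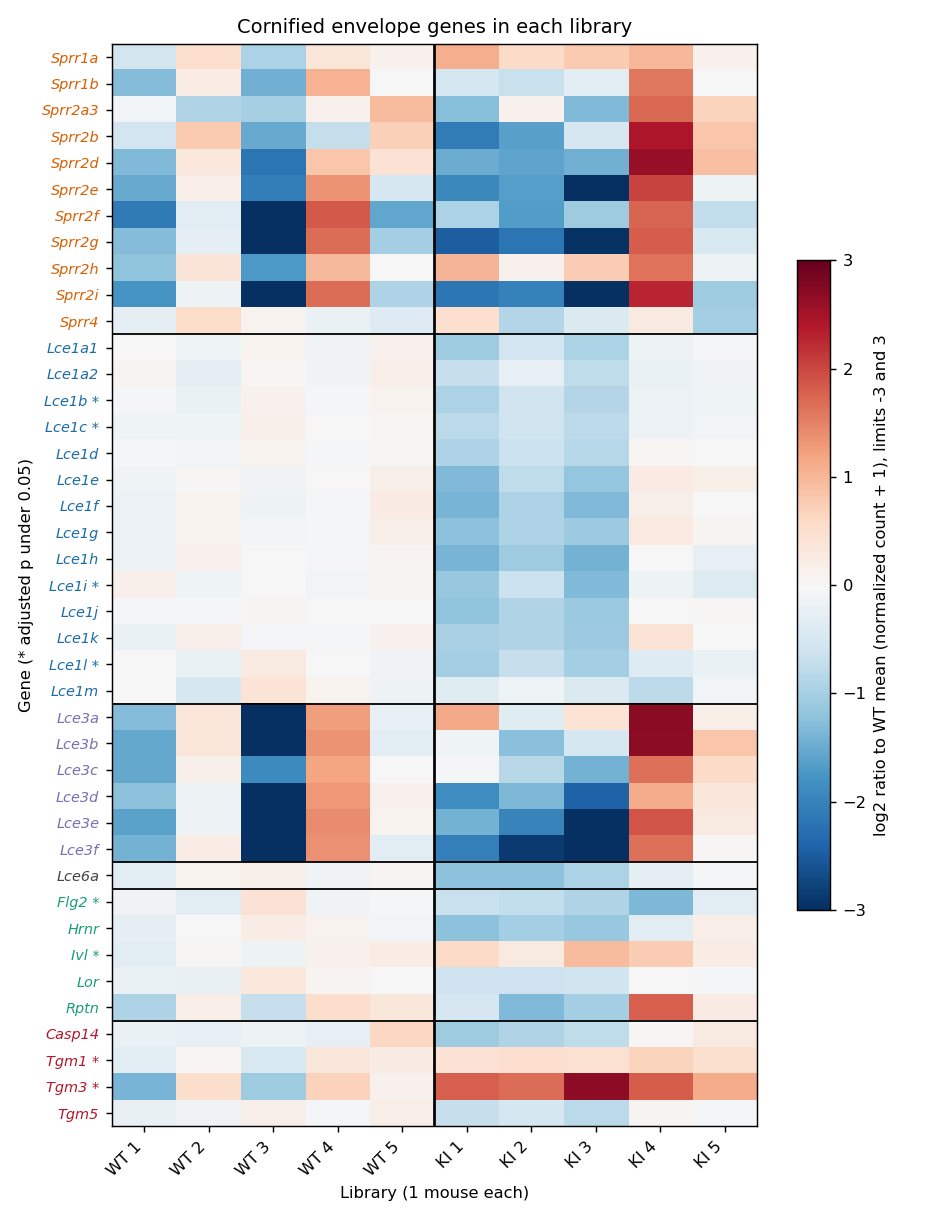
Log2 ratio of the normalized count + 1 in each of the 10 libraries to the WT mean + 1, for the 41 genes tested, with lines between the classes and asterisks for an adjusted p under 0.05. The *Lce1* block is pale in WT and mostly blue in KI replicates 1 to 3. The *Sprr2* and *Lce3* blocks are red in KI replicate 4, red in WT replicate 4 except for *Sprr2a3* and *Sprr2b*, and blue in WT replicate 3.

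*Sprr1a* was the most abundant envelope gene per length, at an RPKM (CPM divided by the gene length in kilobases) of 1182 in WT and 1992 in KI skin. It encodes a proline-rich cross-bridge that is known to rise with TPA and injury. Its normalized counts were 17113, 35501, 12970, 31843 and 27122 in WT and 53250, 37190, 42957, 49461 and 27094 in KI skin. KI replicates 1 to 4 were above all WT libraries and KI replicate 5 was level with WT replicate 5. The log2 fold change was 0.75 (SE 0.28, edgeR adjusted p = 0.0602), on the other side of the threshold with DESeq2 (adjusted p = 0.0199). With the hair keratin level as a covariate it was 0.09 (edgeR adjusted p = 0.909).

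*Sprr4*, next in level at an RPKM of 1018 in WT and 898 in KI skin, gave a log2 fold change of -0.18 (SE 0.31, edgeR adjusted p = 0.665). *Sprr1b* had normalized counts of 574, 1652, 514, 2888 and 1406 in WT and 978, 886, 1139, 4223 and 1412 in KI skin (log2 fold change 0.29, SE 0.58, edgeR adjusted p = 0.712). KI replicate 4 and WT replicate 4 were the highest of their groups.

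Of the 8 *Sprr2* genes tested, all were highest among KI libraries in KI replicate 4, and 6 were highest among WT libraries in WT replicate 4, the exceptions being *Sprr2a3* and *Sprr2b*. *Sprr2d* had normalized counts of 210, 658, 115, 953 and 720 in WT and 187, 176, 197, 3272 and 989 in KI skin. Its log2 fold change of 0.85 was the highest among the *Sprr* genes but had an SE of 0.92 (edgeR adjusted p = 0.489). *Sprr2h* had 379, 1149, 267, 1729 and 865 in WT and 1794, 961, 1488, 2728 and 794 in KI skin (log2 fold change 0.82, SE 0.52, edgeR adjusted p = 0.231).

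*Sprr2i*, a *Sprr2* gene whose promoter site is shown above beside those of *Sprr2d* and *Sprr2h*, ranged from a normalized count of 11 to 413 in WT and from 5.49 to 632 in KI skin, and its log2 fold change was 0.20 (SE 1.20, edgeR adjusted p = 0.910). The 8 *Sprr2* genes ranged from -0.10 to 0.85 on the log2 fold change scale, and KI replicate 4 was the highest of all 10 libraries in 7 of them. *Sprr2a1* and *Sprr2a2* had 0 counts in every library, which allows up to 0.153 CPM in the smallest library, for counting error only. Of the 50-base words in their transcripts 96.3% and 96.5% also occur in another gene, and 61.1% of those of *Sprr2a3*, so counts of these 3 genes depend on how shared fragments were assigned. The other genes not tested, *Sprr2j-ps*, *Sprr2k* and *Sprr3*, had mean normalized counts of 22.0, 12.1 and 0.388 in WT and 22.4, 20.3 and 4.45 in KI skin.

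Among the *Lce3* genes, which encode LCE proteins of repair and inflammation, *Lce3c* had the most counts. Normalized counts were 63.5, 204, 48.8, 421 and 187 in WT and 181, 104, 68.1, 585 and 277 in KI skin (log2 fold change 0.38, SE 0.67, edgeR adjusted p = 0.680). *Lce3a* had 18.4, 60.6, 2.44, 114 and 39.2 in WT and 103, 36.2, 62.6, 314 and 54.1 in KI skin, a log2 fold change of 1.25 with an SE of 0.78 (edgeR adjusted p = 0.226). The groups overlapped for all 6 *Lce3* genes. A median of 39.7% of their 50-base words occurs in another gene, against 19.9% for the *Lce1* genes.

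KI replicate 4 was the highest of all 10 libraries in 8 of 11 *Sprr* genes and 5 of 6 *Lce3* genes, with median ratios to the WT mean of 3.37 and 3.47. WT replicate 3 was the lowest of all libraries in 6 of 11 *Sprr* and 5 of 6 *Lce3* genes, with median ratios of 0.304 and 0.0524. Keratins and calgranulins of stressed epidermis had the same extreme on the high side. *Krt16* had normalized counts of 6365, 18051, 4609, 25265 and 16314 in WT and 5429, 7225, 4328, 52608 and 16590 in KI skin. *Krt6a*, *Krt6b*, *Krt17*, *S100a8* and *S100a9* were also highest in KI replicate 4, and none of these 6 genes passed. Their part in the *Sprr* and *Lce3* values was not tested. Without KI replicate 4 the median log2 fold change was -0.46 for the *Sprr* genes, -0.62 for the *Lce3* genes and -0.66 for the *Lce1* genes, of which 9 then passed, all lower. Over all genes, the fits that left out 1 library called 3333 to 5349 in either direction. That range is not the share of genes called lower in the fit without KI replicate 4. Without WT replicates 1 and 3 the median of the same 11 *Sprr* genes was -0.20 (-0.11 over the 12 then tested, *Sprr2k* included) and that of the *Lce1* genes -0.49, with 0 *Lce1* genes past the edgeR threshold and 4 at an unadjusted p under 0.05. In that fit 1424 of 15724 genes were called lower, against 2962 of 15543 with all libraries.

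**Figure D4:**
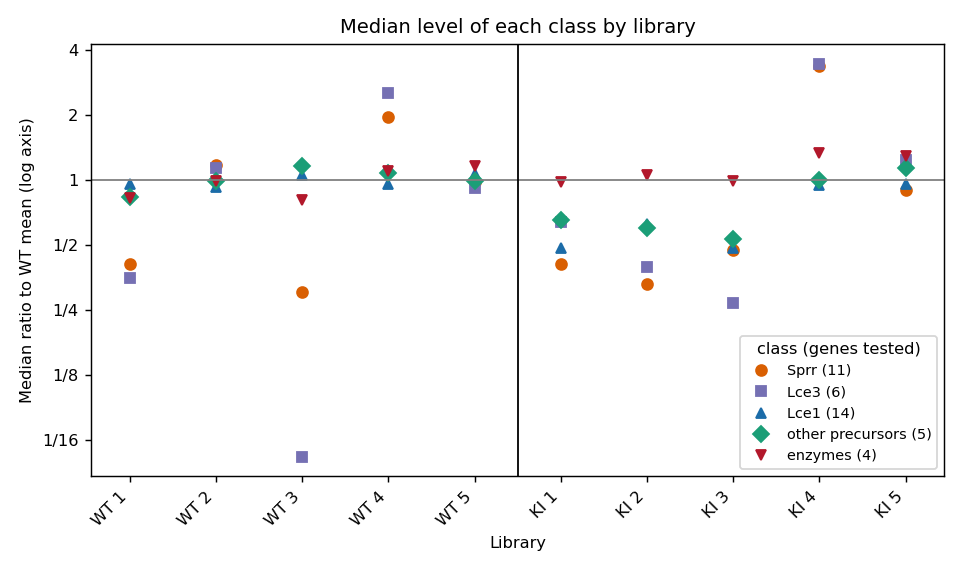
Median over the genes of each class of the ratio to the WT mean, by library, on a log axis; the number of genes tested is given with each class. *Sprr* medians range from 0.304 to 1.97 in WT and from 0.331 to 3.37 in KI libraries and *Lce3* medians from 0.0524 to 2.53 and from 0.270 to 3.47, while the *Lce1* median is near 1 in the 5 WT libraries and in KI replicates 4 and 5 and between 0.483 and 0.627 in KI replicates 1 to 3.

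The scaling of the libraries sets what the *Lce1* and *Lor* values are measured against. With TMM, DESeq2 size factors, upper-quartile scaling or scaling to *Krt5* and *Krt14*, the log2 fold change was negative for all 14 *Lce1* genes, but scaled to the summed counts of *Krt1* and *Krt10* it was positive for 11 of the 14, with a median of 0.09. That scaling raised the median of all genes to 0.77, so the *Lce1* median was 0.68 below it, against 0.49 below it with TMM. Scaled to *Krt1* and *Krt10*, 7 envelope genes passed, all higher (*Ivl*, *Tgm1*, *Tgm3*, *Sprr1a*, *Sprr2h*, *Lce3a* and *Lce3b*), and over all genes the calls were 4938 higher and 120 lower, against 2373 and 2962 with TMM. Scaled to *Krt5* and *Krt14*, which raised the median of all genes to 0.15, 4 passed, all higher (*Tgm3*, *Sprr1a*, *Sprr2h* and *Lce3a*). Over all 15543 genes the calls were then 655 higher and 966 lower. *Tgm3* was higher under each of these 5 scalings.

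**Figure D5:**
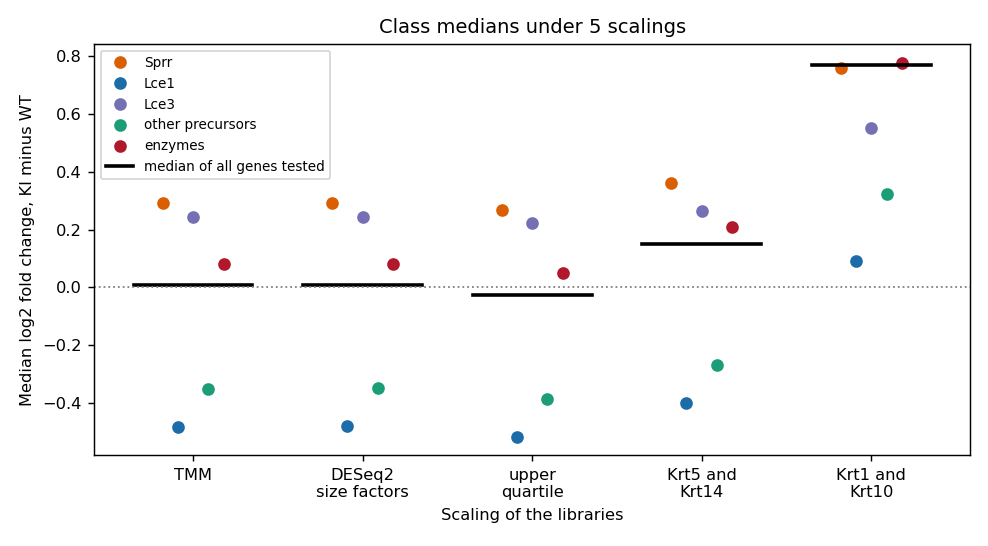
Median log2 fold change of each class under 5 scalings of the libraries, with the median of all genes tested as a black bar. The *Lce1* median is below the bar under every scaling and changes from -0.48 to 0.09 with scaling to *Krt1* and *Krt10*.

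The wider set of envelope and barrier genes gave calls in both directions. Of 18 partners of the envelope, 4 rose and 2 fell, a share of 33.3% against 34.3% of all genes. The rise was in the cross-linked plakins *Evpl* (envoplakin, log2 fold change 0.52) and *Ppl* (periplakin, 0.40), in *Cdsn* (corneodesmosin, which holds corneocytes together, 0.59) and in *Crct1* (cysteine-rich C-terminal 1, a gene of the same complex, 0.50). Those that fell were *Sbsn* (suprabasin, -0.39) and *Kprp* (keratinocyte proline-rich protein, -0.49). The 6 edgeR adjusted p-values were between 0.0144 and 0.0469. The median of the 18 log2 fold changes was 0.05.

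Of 12 genes that process filaggrin or shed corneocytes, 2 rose (16.7%, against 15.3% of all genes), *St14* (matriptase, log2 fold change 0.75, edgeR adjusted p = 0.0191) and *Prss8* (prostasin, 0.55, edgeR adjusted p = 0.0337), a pair of proteases that act in one cascade. None fell in edgeR (0 at an unadjusted p under 0.05 and 0 with DESeq2), and *Asprv1*, the filaggrin-cleaving SASPase, had a log2 fold change of -0.04 (edgeR adjusted p = 0.872). Of 11 other genes of the complex, *S100a14* (0.59, edgeR adjusted p = 0.0136) and *S100a16* (0.65, edgeR adjusted p = 0.0174), both calcium-binding proteins, rose (18.2%, against 15.3% of all genes). *S100a3* (1.75, edgeR adjusted p = 0.0614) and *S100a7a* (1.70, edgeR adjusted p = 0.0689) had larger log2 fold changes but did not pass. At an unadjusted p under 0.05 5 of the 11 were higher and 0 lower. With DESeq2, which called 3067 of 15543 genes higher, 5 were higher and 0 lower. The log2 fold change was positive for 9 of the 11. *Tchh*, the hair and inner root sheath protein trichohyalin, had a log2 fold change of 1.5 that did not pass (SE 0.67, edgeR adjusted p = 0.104). The summed level of this list was 924 to 11660 CPM in WT and 11705 to 22711 in KI libraries, and for its hair genes too hair content and genotype cannot be told apart.

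Of 20 regulators of keratinocyte differentiation, 7 rose (35%, against 15.3% of all genes) and 1 fell (5%, against 19.1%), in all 40.0% against 34.3%, with a median log2 fold change of 0.30. The 4 with the lowest adjusted p were *Ovol1*, a zinc-finger factor of the exit from the basal layer (log2 fold change 0.88, SE 0.20, edgeR adjusted p = 0.0113), *Gata3* (0.51, edgeR adjusted p = 0.0116), *Cebpa*, the one that fell (-0.34, edgeR adjusted p = 0.0132), and *Grhl1* (0.53, edgeR adjusted p = 0.0157). *Ovol1* had normalized counts of 2119, 3657, 2198, 4396 and 3969 in WT and 5830, 6217, 6487, 6128 and 5373 in KI skin, and every KI library was above every WT library. The other 4 that rose were *Prdm1* (0.61), *Fosl2* (0.42), *Maf* (0.32) and *Hes1* (0.43). Several of these factors also work in the hair follicle, and 4 of its 12 shaft keratins were higher, as given above. *Klf4*, *Grhl3* and *Trp63* had log2 fold changes of 0.05, 0.09 and -0.01 (edgeR adjusted p = 0.750, 0.676 and 0.956), and, besides *Fosl2*, the AP-1 genes *Fos*, *Jun*, *Junb* and *Fosl1* of -0.15, 0.19, 0.46 and 0.53 (edgeR adjusted p = 0.824, 0.379, 0.131 and 0.334).

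Markers of other cell types moved between the groups as well. Against 19.1% of all genes, all 8 skeletal muscle genes were lower in KI skin (summed level 6799 to 35971 CPM in WT and 3189 to 9566 in KI libraries), as were 6 of 6 macrophage genes (375 to 745 and 178 to 299), 5 of 6 adipocyte genes (1015 to 2431 and 571 to 768) and 3 of 5 sebaceous genes (2928 to 6137 and 1751 to 2374). Of 5 basal epidermal genes 2 fell, *Itgb4* and *Itga6*, by 0.35 and 0.29 on the log2 scale, while *Krt5* and *Krt14* had log2 fold changes of -0.07 and -0.14 (edgeR adjusted p = 0.803 and 0.724). No inner root sheath keratin passed in edgeR (0 of 8, with 6 at an unadjusted p under 0.05, 3 with DESeq2 and a median log2 fold change of 1.37). None of the markers of these lists was at 0 in any library. The part of these tissues in the envelope values was not tested.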

How the data were processed

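RNA from full-thickness treated skin of 5 WT and 5 KI mice was sequenced as paired reads. After a quality filter the authors mapped reads to mm10 (STAR 2.5.2b), and featureCounts (Subread 1.5.0-p1) gave the fragment counts per gene, which they deposited raw. How fragments shared by several genes and strand were handled is not given in the sources used here. The authors tested these counts with DESeq2.

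Counts were scaled by TMM and filtered with filterByExpr (minimum count 10) in edgeR 4.0.16 (R 4.3.3), which then fitted a robust quasi-likelihood model with genotype as the only term and tested 15543 genes. Standard errors are the log2 fold change divided by the square root of the F statistic. The 2 rows without a gene name (7.38e-05% of counts) were left out. Total counts per library were 19595035 to 36419573, and the median biological coefficient of variation was 14.9%; p-values measure the spread between mice of each group. On simulated counts the script recovered 99.0% of 198 changed genes among 15586, with 4.39% of calls false. These 2 shares hold for the simulated counts only. The share of false or missed calls among the envelope genes in the skin libraries was not tested.

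Genes named in full were those past an adjusted p of 0.05, the gene with the most counts in each of *Sprr*, *Lce1*, *Lce3* and *Lce6a*, every other precursor and enzyme, and up to 4 genes of each other list by adjusted p; *Evpl*, *Cdsn*, *Lce3a*, *Sprr1b*, *Sprr2d*, *Sprr2h*, *Sprr2i*, *Sprr4*, *Krt1*, *Krt10*, *Krt16*, *Tchh*, *Asprv1* and the other regulators given were added after their values were seen. The members and lists were chosen with earlier results of these data known. Alternatives were DESeq2 1.42.0, other scalings and filters, a replicate block, the hair keratin level as covariate, leaving out libraries and, chosen after seeing the data, thinning to equal depth. Coordinates and promoters are RefSeq on GRCm38.p6; shared 50-base words were counted in GENCODE transcripts on GRCm38. The numbers shared by WT and KI replicates mark no pair in the labels.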

Additional observations from a re-analysis of the deposited data

Results flagged for a closer look

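In groups of 5 libraries, 13 of 84 groups of the genes tested and *Zfp36* had 1 library whose gap to the nearest other library, as a share of the whole range, was above 0.71, Dixon's critical value; chance would give about 4.2. Most were high values in KI replicate 4, with a gap of 0.842 of the range for *Sprr1b*, 0.737 for *Sprr2d*, 0.801 for *Sprr2e*, 0.904 for *Sprr2f*, 0.82 for *Sprr2g*, 0.912 for *Sprr2i*, 0.758 for *Lce3a*, 0.773 for *Lce3b* and 0.742 for *Rptn*. WT replicate 4 was the highest WT library by 0.787 of the range for *Sprr2f*, 0.757 for *Sprr2g* and 0.74 for *Sprr2i*. The remaining one was *Casp14* in WT replicate 5, at a normalized count of 26461 against 14452 to 15309 in the other WT libraries, a gap of 0.929. The genes of one library are not independent of each other. Dixon's value also assumes normally distributed values, while the normalized counts were used without a log scale. The 4.2 groups given for chance may therefore be too low.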

How the results depend on the processing

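The 8 envelope genes past the threshold numbered 8 or 9 with thinning to equal depth, without a filter, with a minimum of 10 counts per library and with size factors of DESeq2 or the upper quartile. With DESeq2 they numbered 13, where 6431 of all genes passed, against 5335 in edgeR. With scaling to *Krt1* and *Krt10* they numbered 7, of which 3 were among the 8. They numbered 4 with scaling to *Krt5* and *Krt14* (1621 of all genes, against 5335), 2 without WT replicates 1 and 3 (*Tgm1* and *Tgm3*, with 2504 of all genes), and 0 in edgeR with the hair keratin level as a covariate (1, *Tgm3*, at an unadjusted p under 0.05, and 12 of all genes adjusted), a term that does not overlap between the groups. Leaving out 1 library gave 4 to 15 envelope genes and 3333 to 5349 of all genes; the lowest counts came without WT replicate 1 or KI replicate 2 (4 each) and the highest without KI replicate 5 (15) and KI replicate 4 (13). With a replicate block 2740 of all genes and 8 envelope genes passed, with *Lce6a* in and *Ivl* out (log2 fold change 0.57, edgeR adjusted p = 0.0616). No sign was seen that the numbers pair the mice: the correlations of same-numbered libraries were -0.11, -0.19, -0.14, 0.09 and -0.17, and 0 of 5 matched its own number best. With 5 mice per group these correlations cannot exclude a pairing.

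Log2 fold changes of the opposite sign were seen for *Rptn* with the block (-0.046), without WT replicates 1 and 3 (-0.034), with the hair covariate (-0.076) and in the range over left-out libraries (-0.52 to 0.55), and for *Lce3c* without WT replicates 1 and 3 (-0.17), with the hair covariate (-0.52) and over left-out libraries (-0.24 to 0.93). With scaling to *Krt1* and *Krt10* they were 0.026 for *Flg2*, 0.021 for *Lce1l*, 0.13 for *Lce1b*, 0.20 for *Lce1c*, 0.46 for *Lce1m*, 0.32 for *Lor*, 0.16 for *Casp14* and 0.29 for *Tgm5*, where the median of all genes was 0.77. The cause was not tested for any of these. The precision of the *Sprr2* and *Lce3* values is limited by the spread between mice, with standard errors up to 1.20 on the log2 scale.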
